A study of Rattus norvegicus with 6 samples.

Results

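miR-199a-3p, miR-199a-5p and miR-214-3p are 3 mature microRNAs (miRNAs) of the cluster of miR-199a and miR-214, and their levels in exosomes of rat mesenchymal stem cells are described here with and without nicorandil pretreatment of the cells. They were picked by name, with earlier results of these data known, from the 763 miRNAs of the deposited table, in which each of the 3 occurs once. Exosomes, small vesicles shed by cells, were taken with an isolation reagent from the medium of wild-type rat mesenchymal stem cells of the line RBMSC. The untreated group holds 3 libraries from cells with no pretreatment, and the nicorandil group holds 3 libraries from cells kept for 24 hours in 200 µM nicorandil, a drug against angina that acts as an opener of ATP-sensitive potassium channels and a source of nitric oxide. The labels give no passage, medium supplement or culture of origin for a library, so it is not known whether the 3 libraries of a group are separate cultures, and the p-values measure the spread between these libraries, which may be technical.

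A miRNA precursor is a hairpin whose arms can each give a mature miRNA, named 5p and 3p after the arm, and the mature miRNA is guided to messenger RNAs mainly by its seed, bases 2 to 8. miR-199a and miR-214 are made from 1 long non-coding transcript that runs antisense to an intron of the dynamin gene Dnm3, and its transcription is known to depend on the mesenchymal factor Twist1. Both are known from fibroblasts, perivascular and stromal cells and from fibrosis. In heart muscle miR-199a-5p and miR-214 are also linked to hypoxia and calcium handling.

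The mature sequences are shown because the members differ in seed although they share a transcript. They are from RefSeq on the rat build GRCr8, in 5′ to 3′ direction, with the seed in capitals.
miR-199a-5p: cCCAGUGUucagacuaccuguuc
miR-199a-3p: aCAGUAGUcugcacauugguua
miR-214-3p: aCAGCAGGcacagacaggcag

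The arms of miR-199a lie in the gene Mir199a2, with miR-199a-5p at chr13:77116255-77116277 and miR-199a-3p at chr13:77116294-77116315, both on the plus strand. miR-214-3p lies downstream in Mir214 at chr13:77121713-77121733 on the same strand, with 5397 bases between it and miR-199a-3p. Mammals can carry further gene copies that give the same mature miR-199a, so its reads cannot be assigned to a copy. Both genes fall within Dnm3, which is on the minus strand of that assembly. The 3 seeds differ, and no other of the 693 mature miRNAs in the RefSeq table has any of them. Only 686 of the 763 listed names matched that table, and miRNAs without a mature entry there, miR-761 (0 reads in all 6 libraries) among them, were not compared. The starts of miR-199a-3p and miR-214-3p resemble each other: 6 of the first 8 bases are the same, and the others, counted from the 5′ end, are the changes U5C and U8G from miR-199a-3p to miR-214-3p.

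The hairpin of Mir214, at chr13:77121645-77121752 on the plus strand, is shown with the RefSeq entries miR-214-5p and miR-214-3p in capitals, in that order. Only the second name had reads in these libraries. The miR-214-5p entry, 17 bases long, lies almost wholly before the stretch that can pair with miR-214-3p.
Mir214: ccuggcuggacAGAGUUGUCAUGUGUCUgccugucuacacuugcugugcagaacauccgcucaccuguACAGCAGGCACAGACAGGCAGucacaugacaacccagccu

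The same stretch of DNA carries a miRNA gene on the other strand, Mir3120, whose hairpin shares 106 of its 117 bases with that of Mir214. miR-214-5p and miR-3120 are both listed and had 0 reads in all 6 libraries. The sequence that was counted as miR-214-5p is not known, so its 0 does not cover the 5p arm as a whole. A count of 0 allows a share of up to 0.0443% of the 6774 untreated reads and up to 0.00725% of the 41378 nicorandil reads. For comparison, miR-214-3p had 37 reads in the untreated and 176 in the nicorandil libraries.

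Depth limits every value that follows and differs between the groups. The untreated libraries held 2212 to 2338 miRNA reads each and the nicorandil libraries 8426 to 16628. A share is the reads of a miRNA as a percent of all miRNA reads of its library, with a 95% Wilson interval. The members are of like length, 21 to 23 bases, so reads were set against each other without a length correction. The normalized values are the authors' deposited ones, set to 1 common library size. The ratio of that size to a library's total, scaled by edgeR's TMM factor, was 1.93 to 2.17 in the untreated and 0.375 to 0.771 in the nicorandil libraries. The adjustment is not a plain multiplication by this ratio. In untreated replicate 3, 5 reads of miR-199a-3p stand at 12.4 and 0 reads of miR-199a-5p at 0.866. The labels describe no molecular identifiers, so PCR copies were not told apart and intervals and limits cover counting error only. Fewer exosomes of a kind and less of a miRNA per exosome cannot be told apart in such libraries.

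miR-199a-3p, the arm with more reads of miR-199a, had 9, 14 and 5 reads in the untreated libraries and 89, 70 and 42 in the nicorandil libraries. Its deposited normalized values were 17.8, 27.5 and 12.4 in untreated and 33.8, 27.0 and 32.5 in nicorandil exosomes, or 19.3 ± 7.65 against 31.1 ± 3.64 (SD, n = 3 per group). Untreated replicate 3 was the lowest, and untreated replicate 2 reached into the nicorandil range, so the groups overlapped. The log2 fold change was 0.73 (SE 0.29, 95% interval 0.11 to 1.34), and it did not pass the threshold of 0.05 over all 121 miRNAs tested (limma, Benjamini-Hochberg adjusted p = 0.0985, unadjusted p = 0.0236). On the reads scaled by edgeR's TMM factors it was 0.77 (SE 0.35, 95% interval 0.00802 to 1.54, limma adjusted p = 0.176). For this miRNA the deposited values thus showed less spread than the scaled reads. On the deposited values without untreated replicate 2 the fold change did pass, at 1.01 on the log2 scale (limma adjusted p = 0.0301). That fit called 14.9% of the tested miRNAs. Without untreated replicate 3 the log2 fold change lay at 0.46 (limma adjusted p = 0.324).

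As a share of the reads miR-199a-3p took 0.405%, 0.633% and 0.214% of the untreated and 0.535%, 0.429% and 0.498% of the nicorandil libraries. The nicorandil libraries lay close together and inside the range of the untreated ones. The mean shares were 0.417% ± 0.210 and 0.488% ± 0.0541 (SD, n = 3 per group), and the exact permutation test (two-sided) gave a p of 0.7. The intervals of the untreated shares were wide, from 0.0914% to 0.4997% in replicate 3 and from 0.377% to 1.06% in replicate 2, because they rest on 5 and 14 reads. Summed over libraries, the share was 1.18 times as high with nicorandil, with a conditional exact 95% interval of 0.789 to 1.81.

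miR-199a-5p, the other arm of the same hairpin, was the member with the fewest reads: 5, 4 and 0 in the untreated against 10, 20 and 16 in the nicorandil libraries. Its normalized values were 8.79, 7.998 and 0.866 in untreated and 2.37, 8.12 and 12.9 in nicorandil exosomes, where the 0.866 stands for a library with 0 reads. The groups overlapped over most of their range. The log2 fold change of 0.46 (SE 0.67) did not pass (limma adjusted p = 0.792), and its 95% interval ran from -0.96 to 1.88. Without untreated replicate 3 it was -0.32. Changes inside the interval of -0.96 to 1.88 were not excluded at this depth.

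The shares of miR-199a-5p were 0.225%, 0.181% and 0% in the untreated against 0.0601%, 0.123% and 0.190% in the nicorandil libraries. The 0 of untreated replicate 3 allows a share of up to 0.128%, which is above the shares of nicorandil replicates 1 and 2. The means of 0.135% ± 0.119 and 0.124% ± 0.0649 (SD, n = 3 per group) gave a p of 1.0 in the same exact test. Within the nicorandil group the shares differed by more than counting error: the Wilson interval of replicate 1 was 0.0327% to 0.111% and that of replicate 3 was 0.117% to 0.308%.

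miR-214-3p, the product of the neighbouring hairpin, was the most even of the members across libraries. It had 11, 13 and 13 reads in the untreated against 81, 62 and 33 in the nicorandil libraries. The normalized values were 22.1, 27.6 and 26.9 in untreated and 31.2, 24.0 and 25.3 in nicorandil exosomes, or 25.5 ± 3.004 against 26.8 ± 3.84 (SD, n = 3 per group). The groups overlapped, with nicorandil replicate 1 above the other libraries and untreated replicate 1 below them. The log2 fold change was 0.07 (SE 0.25, 95% interval -0.45 to 0.58) and did not pass (limma adjusted p = 0.897).

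On the scale of shares the same reads of miR-214-3p separated the groups. It took 0.495%, 0.588% and 0.556% of the untreated libraries and 0.487%, 0.380% and 0.392% of the nicorandil libraries, so that each nicorandil library lay below each untreated one. The gap between the nearest libraries, 0.487% and 0.495%, was far smaller than their Wilson intervals, 0.392% to 0.605% and 0.276% to 0.884%. The means were 0.546% ± 0.0473 and 0.420% ± 0.0588 (SD, n = 3 per group). In the exact permutation test this gave a p of 0.1, below which 3 libraries against 3 cannot go, and 0.35 after Benjamini-Hochberg adjustment over the 7 shares and ratios compared. Shares were lower in this non-overlapping way for 21.5% of the 121 tested miRNAs, miR-214-3p among them. The separation of miR-214-3p did not hold when miR-143-3p was left out of the total. The difference in mean share was then -0.151 percentage points (two-sided exact permutation p = 0.2). With library totals as the scale the log2 fold change of miR-214-3p was -0.37 (limma adjusted p = 0.399), so its sign followed the scale while no scale gave a call.

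**Figure D1:**
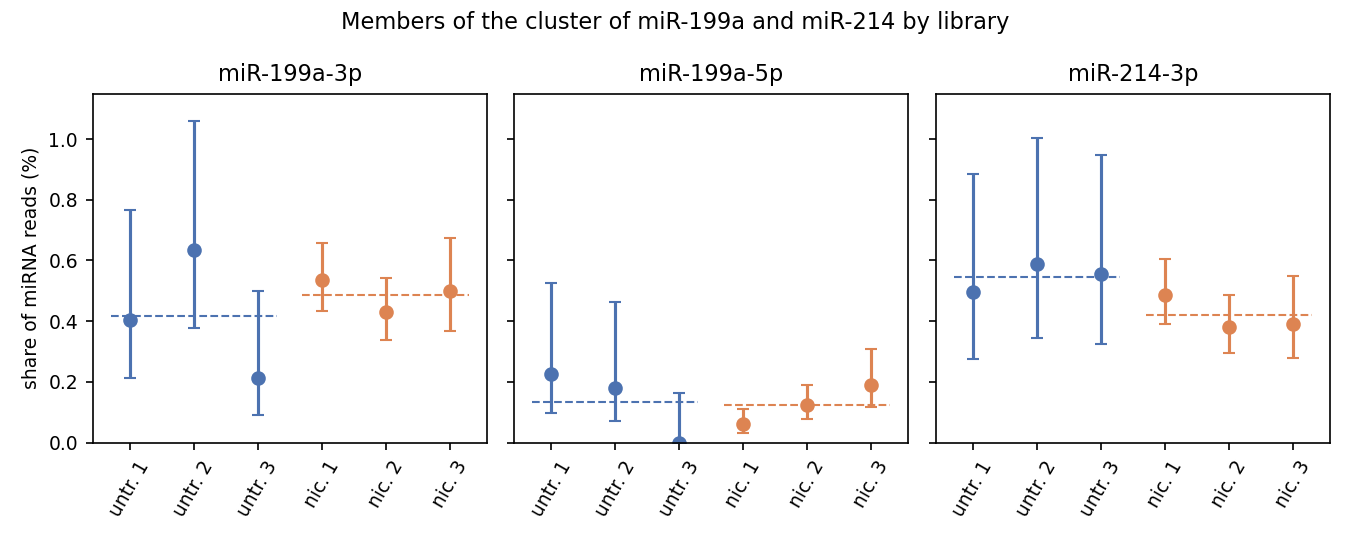
Share of all miRNA reads (%, vertical axis) of each member in the 3 untreated (untr., blue) and 3 nicorandil (nic., orange) libraries. Bars are 95% Wilson intervals for counting error and dashed lines are group means. The shares of miR-199a-3p and miR-199a-5p overlap between the groups, and those of miR-214-3p run from 0.380% to 0.487% with nicorandil and from 0.495% to 0.588% without.

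Of the 3 members 0 passed the threshold, against 21.5% of the 121 tested miRNAs (17 higher and 9 lower, limma). That split turned with the scale, to 4 higher and 11 lower with library totals, 6 and 9 with median of ratios, and 5 and 9 with DESeq2. At an unadjusted p under 0.05 there was 1 of the 3, miR-199a-3p. Over all tested miRNAs the share under it was above 21.5%. That share takes in the miRNAs that passed after adjustment and others that did not, miR-199a-3p among them. On the recovered reads, edgeR's quasi-likelihood and exact tests, DESeq2 and limma-voom also called 0 of the 3 after adjustment. These fits called 21, 23, 14 and 19 of the 121 miRNAs, in that order. For 0 of the 3 were the groups apart on the normalized values, against 28.1% of those tested. Their median log2 fold change was that of miR-199a-5p, 0.46, and the median over all tested miRNAs was 0.23. That background moved with the scale: with library totals the median of all tested miRNAs was -0.12, and miR-199a-3p, miR-199a-5p and miR-214-3p were at 0.33, 0.46 and -0.37. The authors' deposited table gives log2 fold changes of 0.69, 0.33 and 0.09 for the 3, in that order, with unadjusted p-values of 0.0578, 0.619 and 0.835.

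**Figure D2:**
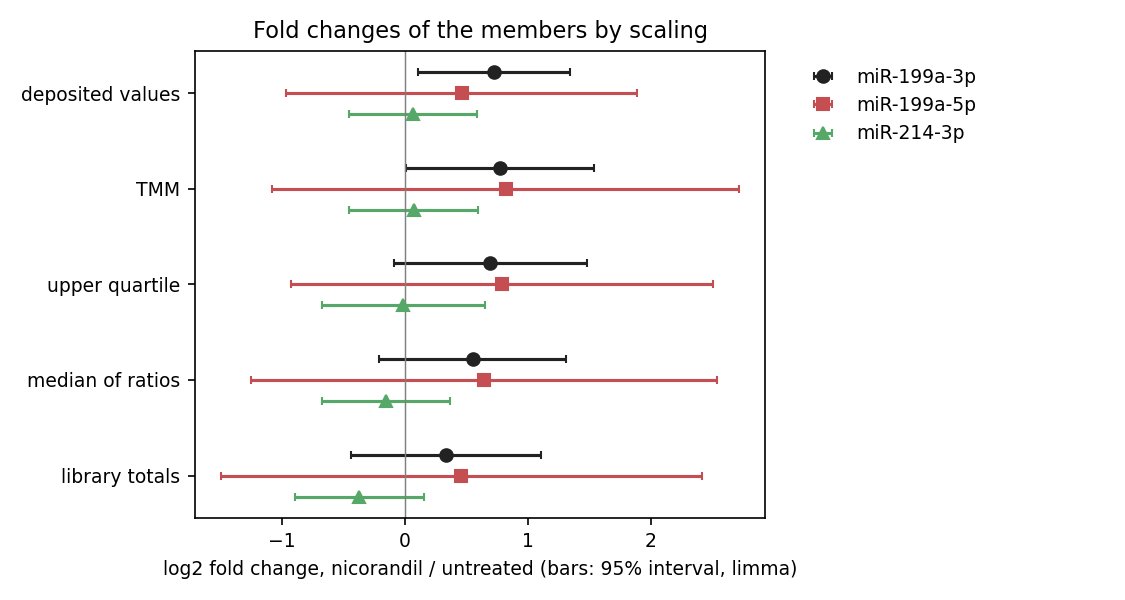
Log2 fold change of each member, nicorandil over untreated (horizontal axis), on the deposited values and on reads scaled in 4 other ways (rows). Bars are 95% intervals from limma. miR-199a-3p stays right of 0, from 0.33 to 0.77, with intervals that span 0 on all but the deposited values and TMM, the intervals of miR-199a-5p and miR-214-3p span 0 on every scale shown, and miR-214-3p moves from 0.07 to -0.37.

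**Figure D3:**
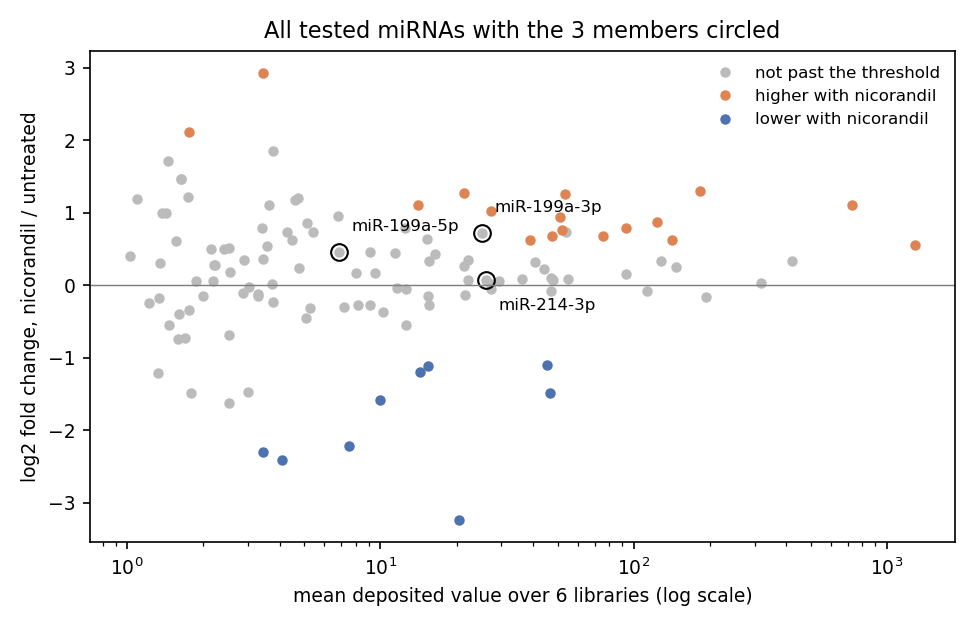
Log2 fold change (vertical axis) against the mean deposited value (horizontal axis, log scale) for the 121 tested miRNAs, with those past the threshold in orange (17 higher) and blue (9 lower) and the 3 members circled. The members lie among the miRNAs that were not called, and miR-199a-3p is the highest of the 3 at 0.73.

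Both arms of 1 precursor can be compared inside a library, where no scaling enters. The ratio was taken as log2 of the reads with 0.5 added to each. Since the reads are of different sequences, such a ratio also takes in how well each was ligated and mapped, which was not measured. miR-199a-3p had more reads than miR-199a-5p in 6 of 6 libraries. It held 64.3%, 77.8% and 100% of the reads of both arms in the untreated libraries and 89.9%, 77.8% and 72.4% in the nicorandil libraries. Summed over libraries, there were 28 reads of miR-199a-3p to 9 of miR-199a-5p without nicorandil, or 3.11 to 1 (exact 95% interval 1.43 to 7.49). With nicorandil there were 201 to 46, or 4.37 to 1 (3.16 to 6.16).

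The spread of the arm balance within each group was wider than the difference between the groups. The mean log2 ratio was 1.98 ± 1.36 without nicorandil and 2.08 ± 0.90 with it (SD, n = 3 per group; two-sided exact permutation p = 0.9). Among the nicorandil libraries the Wilson interval of the 3p share of both arms was 82.4% to 94.4% in replicate 1 and 59.8% to 82.2% in replicate 3, so this pair differed beyond counting error. Replicate 1 had 10 reads of miR-199a-5p among 16628 in all, and replicate 3 had 16 among 8426. With the deposited values, to which 1 was added, the log2 ratio differed by 0.27 between the groups, which is the difference between the fold changes of the arms, 0.73 and 0.46 (two-sided exact permutation p = 0.7). No difference was detectable at this depth.

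The ratio of miR-214-3p to miR-199a-3p sets the co-transcribed hairpins against each other. Its log2 values were 0.28, -0.10 and 1.30 in the untreated against -0.14, -0.17 and -0.34 in the nicorandil libraries. Each nicorandil library was below each untreated one, and the nicorandil libraries agreed closely. The means were 0.49 ± 0.72 and -0.22 ± 0.11 (SD, n = 3 per group), a difference of -0.71 for which the exact permutation test gave its lowest attainable p, 0.1, or 0.35 after adjustment over the 7. The separation rests on few reads: untreated replicate 2 had 13 reads of miR-214-3p and 14 of miR-199a-3p, and nicorandil replicate 1 had 81 and 89. Summed over libraries, miR-214-3p had 1.32 reads for each of miR-199a-3p without nicorandil (exact 95% interval 0.787 to 2.24) and 0.876 with it (0.711 to 1.08), and these intervals overlap. Without untreated replicate 3 the difference of the means was -0.30. How often ratios between other tested miRNAs separated the groups was not counted.

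The ratio of miR-214-3p to miR-199a-5p overlapped between the groups. Its log2 values were 1.06, 1.58 and 4.75 in the untreated against 2.96, 1.61 and 1.02 in the nicorandil libraries (two-sided exact permutation p = 0.7). The 4.75 belongs to untreated replicate 3, in which miR-199a-5p had 0 reads. It depends on the reads added. Summed over libraries, the ratio was 4.11 (exact 95% interval 1.95 to 9.69) without and 3.83 (2.75 to 5.42) with nicorandil.

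**Figure D4:**
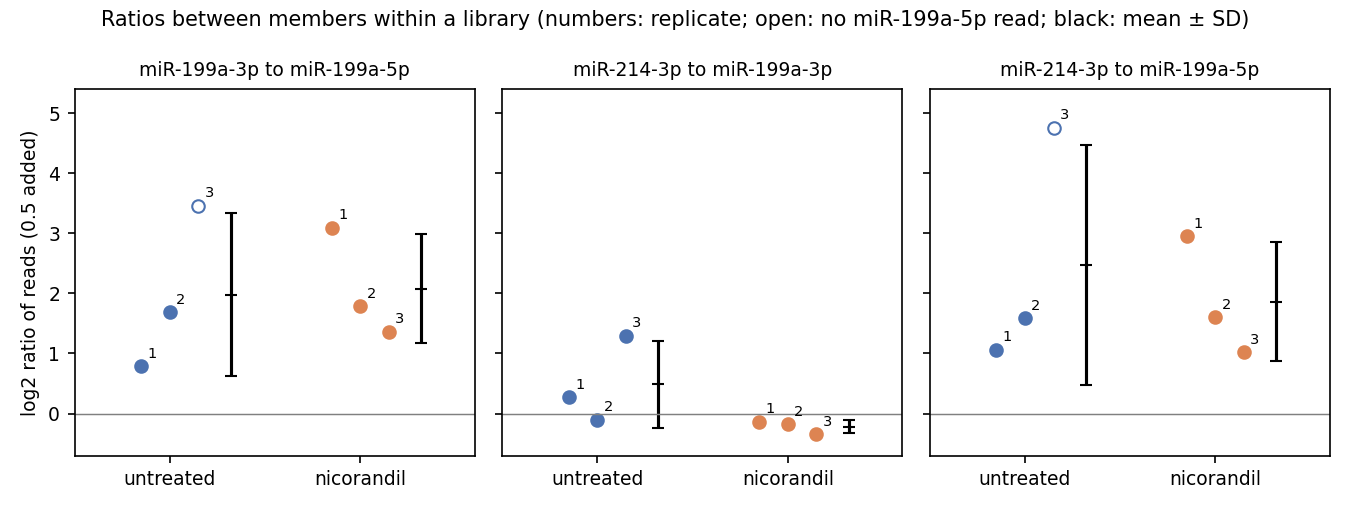
Log2 ratio of reads between pairs of members within each library (vertical axis, 0.5 reads added), by group. Points are libraries numbered by replicate, open where miR-199a-5p had no read, and black bars are mean ± SD. The ratios that include miR-199a-5p spread widely in both groups, and the ratio of miR-214-3p to miR-199a-3p lies between -0.34 and -0.14 with nicorandil and between -0.10 and 1.30 without.

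The order of the members by mean share was miR-214-3p, miR-199a-3p, miR-199a-5p without nicorandil and miR-199a-3p, miR-214-3p, miR-199a-5p with it. Without nicorandil the first and second place did not differ beyond the spread of the libraries. With nicorandil miR-199a-3p had more reads than miR-214-3p in 3 of 3 libraries, by a log2 ratio larger than its SD, and this order was not tested. In each of these libraries an even split lay within counting error. The Wilson intervals for miR-214-3p among the reads of both were 40.3% to 55.1%, 38.7% to 55.4% and 33.3% to 55.3%. miR-199a-5p was the lowest member in every library. Among all 763 miRNAs, ranked by mean share, miR-199a-3p was at 40 without and 29 with nicorandil, miR-199a-5p at 65 and 61, and miR-214-3p at 34 and 35. Together the 3 took 1.10% ± 0.317 of an untreated library and 1.03% ± 0.0867 of a nicorandil library (SD, n = 3 per group; two-sided exact permutation p = 0.7). The ratio of the summed shares was 0.936 (conditional exact 95% interval 0.730 to 1.21).

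Although they share a transcript, the members did not follow each other closely over the 6 libraries. On the log2(value + 1) scale Pearson's r was 0.52 between the arms of miR-199a, 0.35 between miR-199a-3p and miR-214-3p and -0.56 between miR-199a-5p and miR-214-3p. These are descriptions over 6 points that share library, depth and scale, and with counts this low they carry little. Among miRNAs whose mean value reached 10 (54 compared, or 55 for miR-199a-5p), the most like miR-199a-3p were miR-128-3p (r = 0.92), let-7d-3p (0.89) and miR-674-3p (0.84). For miR-199a-5p they were let-7d-3p (0.76), miR-423-3p (0.67) and miR-676 (0.58), and for miR-214-3p they were miR-378a-3p (0.76), miR-140-3p (0.72) and miR-3473 (0.63). In miR-128-3p, as in miR-199a-3p, untreated replicate 2 was the highest untreated library, at a normalized value of 139.5 against 103.3 and 98.2. Since miR-128-3p was picked for its likeness over these same libraries, a shared high library adds nothing to its r.

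Other miRNAs known from mesenchymal cells and fibroblasts give the setting. Of 18 on such a list 15 were tested, 6 were higher, 0 lower and 9 not past the threshold, against 14.0% higher and 7.44% lower over all 121 tested miRNAs. The median log2 fold change of the tested ones was 0.63, against 0.23 over all tested miRNAs. With library totals the median of the list was 0.18, against -0.12 over all tested miRNAs. On that scale 1 of the 15 was higher, miR-145-5p, and 1 was lower, miR-24-3p (log2 fold change -0.43, limma adjusted p = 0.0200), against 3.31% higher and 9.09% lower over all. miR-24-3p is named because it was that exception, after its values were seen. miR-143-3p, a smooth muscle and mesenchymal miRNA, was higher with nicorandil at 0.55 (SE 0.11, limma adjusted p = 0.00182), and miR-145-5p from the same cluster, which had 0 reads in the untreated libraries, was called too. miR-21-5p, linked to survival and fibrosis, was at 0.63 (limma adjusted p = 0.00937). With library totals miR-143-3p and miR-21-5p were at 0.09 and 0.17 and were not called. miR-22-3p, a widely expressed miRNA of stromal cells, resembled miR-214-3p at 0.07 with the deposited values and -0.38 with library totals, and it passed with neither (limma adjusted p = 0.865 and 0.298).

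Some markers of other cell types were lower with nicorandil, read against 7.44% lower among all tested miRNAs. The summed share of 3 liver and gut miRNAs was 1.44% to 2.61% in the untreated and 0.463% to 0.617% in the nicorandil libraries, and all 3 were called lower. Of 2 endothelial miRNAs 1 was tested and was lower, with summed shares of 0.181% to 0.360% and 0.0301% to 0.0356%. Of 5 epithelial miRNAs 2 were tested and 1 was lower (0.181% to 0.385% and 0.0119% to 0.0301%), and of 7 blood cell miRNAs 3 were tested and 1 was lower (0.678% to 0.854% and 0.263% to 0.415%). Neuronal miRNAs, 2 of 4 tested, were at 2.14% to 2.98% and 2.01% to 2.56% with 0 called. Of 6 muscle miRNAs 0 were tested, and 4 of them, miR-1-3p, miR-133b-3p, miR-206-3p and miR-208a-3p, had 0 reads throughout, as did the endothelial miR-126a-5p and the neuronal miR-124-3p and miR-9a-5p. The part of these markers, and of the difference in depth, in the values of the members was not tested.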

How the data were processed

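Small RNA of exosomes was sequenced single-end in 6 libraries, 3 per group. FastQC, Bowtie and edgeR were used, per the submitters' processing notes. Tool versions, genome build and annotation were not given in the sources used here. What the authors deposited is a normalized signal. Each value was found to be an edgeR pseudo-count, and solving that adjustment backwards returned whole numbers of reads for all 763 miRNAs, or 100% (relative tolerance 1e-05). Pseudo-counts recomputed from these reads matched the deposited values to within 4.8e-07. Beside them the authors deposited 1 log2 fold change and 1 p-value without adjustment for each miRNA, per the file headers.

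limma 3.58.1 with trend (R 4.3.3) was run on log2(value + 1), which understates changes of low miRNAs, without covariates. It took in the 121 miRNAs whose mean value reached 1; all 3 members passed this filter. The script was tested on simulated data with larger changes than those of the members. That test does not cover changes of the size seen in the members. Shares and ratios come from the recovered reads (scipy 1.17.1), with two-sided exact permutation tests. Alternatives were edgeR 4.0.16, DESeq2 1.42.0, limma-voom, other scalings, filters and pseudocounts, a replicate block, left-out libraries, and untreated replicates 1 and 2 as 1 sample. Chi-square tests of the counts found no difference beyond sampling noise between those libraries (p = 0.548) or between untreated replicates 1 and 3 (0.160), and found one between replicates 2 and 3 (0.0121). The nicorandil libraries differed beyond sampling noise in every pair. Their chi-square p was 2.1e-13 for replicates 1 and 2, 3.0e-51 for 1 and 3, and 5.4e-55 for 2 and 3. Intervals on reads summed over libraries leave this spread out. At the untreated depth such a test cannot tell separate cultures from repeated libraries of 1 culture, so it does not settle n. The libraries were counted as n = 3 per group. The named miRNAs were the members, the other products of their loci, the 3 most correlated with each member, 4 of the mesenchymal list, hairpins with both arms read and, beyond that rule, miR-761, miR-24-3p and markers of other cell types with 0 reads. Members and lists were chosen with earlier results of these data known.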

Additional observations from a re-analysis of the deposited data

How the results depend on the processing

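miR-199a-3p kept its direction under all 21 alternatives, with log2 fold changes from 0.33 (library totals) to 1.01, and passed only without untreated replicate 2. miR-199a-5p kept its direction under 19 of 20, the exception being the fit without untreated replicate 3, and could not be fitted after filterByExpr, which did not keep it. miR-214-3p changed sign with library totals (-0.37), median of ratios (-0.15), upper quartile (-0.012) and DESeq2 (-0.16), and without untreated replicate 1 (-0.031) or nicorandil replicate 1 (-0.043), and passed in no fit. With single libraries left out, the log2 fold changes ranged from 0.46 to 1.01 for miR-199a-3p, -0.32 to 1.04 for miR-199a-5p and -0.043 to 0.14 for miR-214-3p. The number of miRNAs past the threshold, 26, was 15 with library totals, 15 with median of ratios, 13 with upper quartile and 14 with DESeq2, 21 with edgeR's quasi-likelihood test on the recovered reads, and 11 to 21 with single libraries left out (11 without nicorandil replicate 2). The differences in share ranged over left-out libraries from -0.0313 to 0.178 percentage points for miR-199a-3p, -0.0786 to 0.0338 for miR-199a-5p, -0.160 to -0.106 for miR-214-3p and -0.232 to 0.0842 for the 3 summed. The difference in the log2 ratio of miR-199a-3p to miR-199a-5p, 0.10, was -0.65 with 0.1 reads added, since it then rests on the library with 0 reads. Over left-out libraries it ranged from -0.49 to 0.84. That of miR-214-3p to miR-199a-3p ranged from -1.003 to -0.30 and that of miR-214-3p to miR-199a-5p from -1.31 to 0.54. The causes of these shifts were not tested. Same-numbered libraries did not deviate together (correlations of 0.01, 0.04 and -0.03 on the log2 scale). The replicate block left 26 miRNAs past the threshold and changed no call of a member, with miR-199a-3p at a limma adjusted p of 0.0694. Counts of 0 to 14 reads per untreated library limit all member values.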

Other observations

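Other hairpins with both arms read give a setting for the arm balance of miR-199a. Of the precursors whose arms are listed under 1 name with the endings 3p and 5p, 7 had at least 20 reads of each arm over the 6 libraries. The 3p arm led in both groups for 3 of them, miR-199a, miR-22 and let-7d, and the 5p arm for 3, miR-125a, miR-423 and miR-99b. miR-145 was the exception, with 6 reads of the 3p and 0 of the 5p arm in untreated against 42 and 46 in nicorandil exosomes. The mean log2 ratio of 3p to 5p moved by 0.10 for miR-199a (0.41 with 1 read added and -0.65 with 0.1), by -0.36 for miR-22, -0.42 for miR-423, -1.15 for miR-99b, 1.32 for let-7d, -1.48 for miR-125a and -1.89 for miR-145. Except for miR-423, these ratios rest on few untreated reads of at least 1 arm, such as 8 of let-7d-5p and 11 of miR-22-5p. The changes of the 6 other hairpins were not tested.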
